A study of Mus musculus with 18 samples.

Results

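The cholesterol synthesis genes *Hmgcs1*, *Idi1*, *Fdft1*, *Sqle*, *Lss* and *Dhcr7* and their transcriptional regulator *Srebf2* were followed across all libraries of a bulk RNA-seq experiment on mouse dorsal root ganglia (DRG). The genes were chosen by symbol, and all 7 were found among the 36737 genes of the table. The mice were of the outbred CD1 strain, and L3–L5 DRG were taken from 6 sham-operated animals, 6 with a tibial fracture given vehicle and 6 with the fracture given protectin DX (PDX), a lipid mediator made from docosahexaenoic acid. Males and females were equally split, 3 of each in every group, with 1 library per mouse. Ganglia of both fracture groups were taken on day 3, and the day of the sham mice and the PDX dose of these mice are not given in the sources used here. All mice had surgery, and no transgene or deletion was named for any group.

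Cells build cholesterol from acetyl-CoA through mevalonate, isoprenoid diphosphates, squalene and lanosterol. SREBP2, the protein of *Srebf2*, is held in the endoplasmic reticulum while sterol is plentiful, and is cut and moves to the nucleus when sterol runs low, where it raises transcription of the enzymes. In peripheral nerve the pathway is best known in myelinating Schwann cells, since myelin is rich in cholesterol, and satellite glia wrapped around sensory neurons also express it.

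Library totals lay between 63235040 and 82824942 counts, and each of these 7 genes took between 4298 and 65828 of them. The libraries carried the markers of the tissue: summed CPM, that is counts scaled to a common library size, were 21681 to 26416 for 12 sensory neuron genes, 11143 to 25384 for 12 myelinating Schwann cell genes and 941 to 1284 for 8 satellite glia genes. The Schwann cell sum was lowest in sham female 1 and highest in sham male 3, so both ends of its range lay in the sham group, whereas fracture mice spanned 12911 to 19994 and fracture plus PDX mice 15813 to 17643. Of the markers of central myelin, which DRG should lack, *Mog* was at 0 in 6 libraries and *Opalin* in 14, whereas *Mobp* (mean 1.44 CPM) and *Hapln2* (mean 0.695 CPM) were at 0 in none. Summed CPM of 5 placental genes was 137 to 435 in sham mice, 24.6 to 202 with fracture and 24.2 to 107 with fracture plus PDX, and these genes are not part of this tissue. At an adjusted p-value under 0.05 (edgeR), all 5 were lower in fracture plus PDX against sham, beside 4.5% of all genes tested. In fracture against sham 0 were, beside 2.92%, but all 5 had an unadjusted p-value under 0.05, beside 18.5%. In bulk samples, fewer cells of a type and less RNA per cell cannot be told apart. No 2 libraries held identical counts, and since each library was 1 mouse, p-values measure the spread between mice.

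In the mouse build GRCm38 the genes lie apart on 5 chromosomes: *Hmgcs1* at chr13:119690379-119708260, *Idi1* at chr13:8885501-8892451, *Fdft1* at chr14:63145150-63179578, *Sqle* at chr15:59315077-59331192, *Srebf2* at chr15:82147181-82205379, *Lss* at chr10:76531588-76557138 and *Dhcr7* at chr7:143823145-143848410. *Fdft1* is on the minus strand and the other 6 are on the plus strand. Values were given per gene, so none belongs to a single exon. *Fdft1* overlaps *Ctsb*, a far more abundant gene on the other strand, by 774 bases, and whether the count used strand is not given in the sources used here, so reads in that stretch are uncertain. *Srebf2* overlaps *Gm49502* on its own strand, a gene with 1783 counts over all 18 libraries beside 359369 for *Srebf2*.

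A RefSeq window upstream of the transcription start was given for 5 of the 7 genes, with *Fdft1* and *Sqle* not matched. The 250 bases before each start were searched on both strands for TCACNCCAC, the letters of the sterol regulatory element to which SREBP2 binds, for its shorter form TCACNCCA (added after seeing the data) and for CCAAT and GGGCGG, the letters of the NF-Y and Sp1 sites often found beside it. The longer form contains the shorter, so their matches overlap. TCACNCCAC occurred in 1.05% of all 32817 windows and TCACNCCA in 3.67%, whereas CCAAT occurred in 33.8% and GGGCGG in 32.7%. *Hmgcs1* held TCACNCCAC 1 time, with its first letter at position -137 from the start, and *Srebf2* held only the shorter TCACNCCA, at position -162. The windows of *Idi1*, *Lss* and *Dhcr7* held neither. A still longer form, with an A before it, was in 0.192% of all windows and in none of these. The stretches around these matches are shown because they are where the regulator and 1 of the enzyme genes share these letters, with TCACNCCA in capitals (RefSeq, GRCm38.p6, plus strand, chr13:119690203-119690232 and chr15:82147096-82147125).

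*Hmgcs1*: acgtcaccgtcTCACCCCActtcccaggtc

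*Srebf2*: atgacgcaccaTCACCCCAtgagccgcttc

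The wider upstream sequence of the same genes follows, none of it inside the annotated gene, with every TCACNCCA, CCAAT and GGGCGG on either strand in capitals (chr13:119690101-119690350 for *Hmgcs1* and chr15:82147019-82147180 for *Srebf2*).

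*Hmgcs1*: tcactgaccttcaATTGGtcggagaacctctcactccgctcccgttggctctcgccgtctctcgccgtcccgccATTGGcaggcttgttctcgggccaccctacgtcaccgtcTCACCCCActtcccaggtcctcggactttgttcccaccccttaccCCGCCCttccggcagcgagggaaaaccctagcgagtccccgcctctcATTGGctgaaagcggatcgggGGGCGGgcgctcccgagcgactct

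*Srebf2*: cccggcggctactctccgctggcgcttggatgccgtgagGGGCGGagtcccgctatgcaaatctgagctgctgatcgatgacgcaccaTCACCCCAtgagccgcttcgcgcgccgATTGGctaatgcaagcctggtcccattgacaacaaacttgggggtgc

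In its 250 bases *Hmgcs1* held 3 CCAAT and 2 GGGCGG, and *Srebf2* 1 CCAAT and 4 GGGCGG, some of the latter beyond the gene start and not shown. *Idi1* held 2 CCAAT and 1 GGGCGG, and *Lss* 1 CCAAT and 2 GGGCGG. For *Dhcr7*, which has 3 windows, that nearest to the annotated start held 1 GGGCGG and no CCAAT, the next held neither, and the farthest, well inside the annotated gene, held 2 CCAAT and 3 GGGCGG. A match describes letters only, and a missing match says only that the letters are not in that window.

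Levels were compared between genes on the FPKM scale, fragments scaled by transcript length and by the mapped fragments of the library, as the mean over 18 libraries. *Hmgcs1*, which joins acetyl-CoA and acetoacetyl-CoA to HMG-CoA at the entry of the pathway, was highest at 140 ± 8.28 FPKM (SD, n = 18), a level above that of 99.0% of tested genes. *Fdft1*, squalene synthase, followed at 50.6 ± 3.48 FPKM, and its lowest library (46.4) was above the highest library of *Idi1* (43.7). *Idi1*, which interconverts the isoprenoid building blocks, at 39.1 ± 2.83, *Sqle*, the squalene epoxidase and a rate-limiting step, at 37.2 ± 2.23, and *Srebf2* at 33.6 ± 1.13 FPKM were neighbours whose ranges over libraries overlapped. *Dhcr7*, which carries out the last reduction to cholesterol, stood at 15.3 ± 1.42 FPKM. *Lss*, which closes squalene epoxide into lanosterol, was lowest at 6.09 ± 0.522 FPKM, still above 67.8% of tested genes. Among enzymes of the same pathway outside the chosen genes, *Lbr* stood at 3.28 ± 0.490 and *Acat2*, which makes acetoacetyl-CoA, at 55.3 ± 5.74 FPKM.

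**Figure D1:**
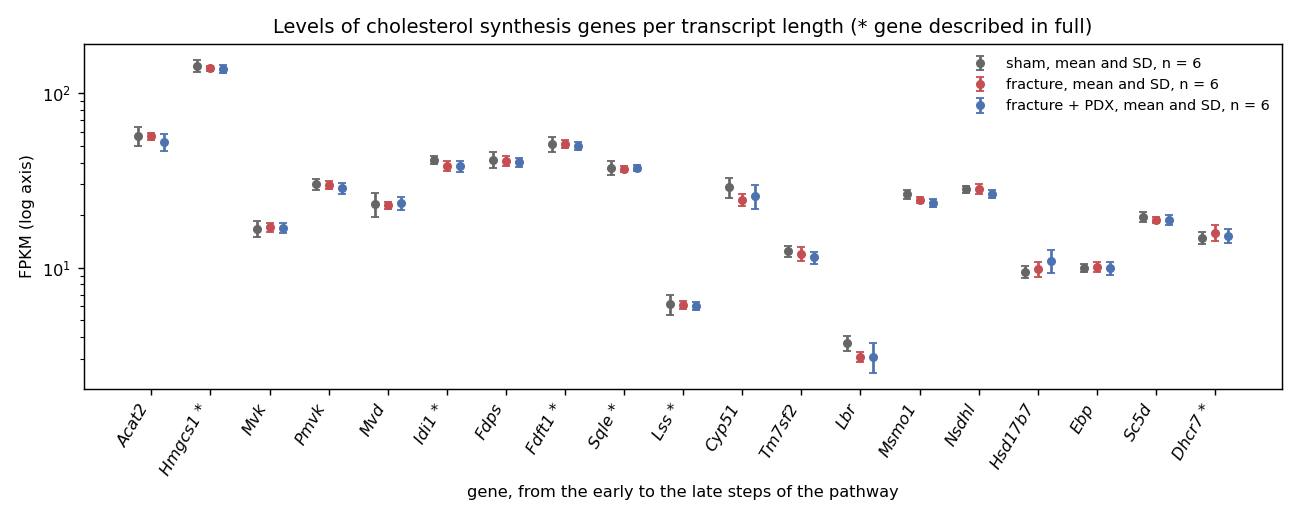
Mean FPKM (log axis) with SD of cholesterol synthesis enzymes in sham, fracture and fracture plus PDX mice (n = 6 each), ordered from the early to the late steps. Of the genes plotted, *Hmgcs1* is highest and *Lbr* and *Lss* are lowest in every group, and the 3 groups lie close together for each gene.

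The spread between mice differed from gene to gene. The coefficient of variation of CPM over the 18 libraries was 3.53% for *Srebf2*, 5.48% for *Sqle*, 6.16% for *Hmgcs1*, 6.43% for *Fdft1*, 6.87% for *Idi1*, 8.61% for *Lss* and 9.02% for *Dhcr7*. The median over the 7 genes, 6.43%, compares with 5.33% over the 3206 genes at least as abundant as *Lss* and 12.9% over all genes tested. *Srebf2* varied less than most of those 3206 genes, of which 13.7% had a lower value, whereas the other 6 varied more than most: *Dhcr7* more than 86.0% of them, *Lss* 84.4%, *Idi1* 71.96%, *Fdft1* 66.9%, *Hmgcs1* 63.2% and *Sqle* 53.1%. By the definition of the set *Lss*, at a mean of 72.6 CPM, is its least abundant gene, and *Dhcr7* was at 98.4 CPM. The part of abundance in these shares was not tested.

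The values by mouse are given for each gene, in CPM, before any test. *Hmgcs1* ranged from 654 to 826 in sham mice (median 712), from 689 to 743 in fracture mice (median 700) and from 640 to 735 in fracture plus PDX mice (median 718). *Idi1* ranged from 149 to 169 in sham (median 160), from 135 to 161 in fracture (median 146) and from 137 to 163 in fracture plus PDX mice (median 146). Both genes had their highest values in sham males 2 and 3, and the groups overlapped for each.

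For the squalene steps, *Fdft1* ranged from 212 to 266 in sham (median 228), from 219 to 253 in fracture (median 230.2) and from 210.3 to 246 in fracture plus PDX mice (median 226). *Sqle* ranged from 199 to 246 in sham (median 231), from 212 to 237 in fracture (median 227) and from 222 to 241 in fracture plus PDX mice (median 227). Sham female 1 was highest of all 18 mice for both, and the fracture groups lay inside the sham range for *Sqle*. *Lss* ranged from 61.3 to 85.1 in sham (median 72.9), from 68.5 to 81.1 in fracture (median 71.5) and from 67.0 to 77.7 in fracture plus PDX mice (median 72.2). Its fracture groups also lay inside the sham range.

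*Dhcr7* ranged from 85.2 to 102 in sham (median 96.7), from 87.4 to 116 in fracture (median 100.5) and from 85.7 to 108 in fracture plus PDX mice (median 97.7). *Srebf2* ranged from 244 to 274 in sham (median 261), from 258 to 274 in fracture (median 269) and from 260.4 to 279 in fracture plus PDX mice (median 275). For *Dhcr7*, 2 fracture mice and 2 fracture plus PDX mice exceeded every sham mouse. For *Srebf2*, 3 fracture plus PDX mice did so.

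**Figure D2:**
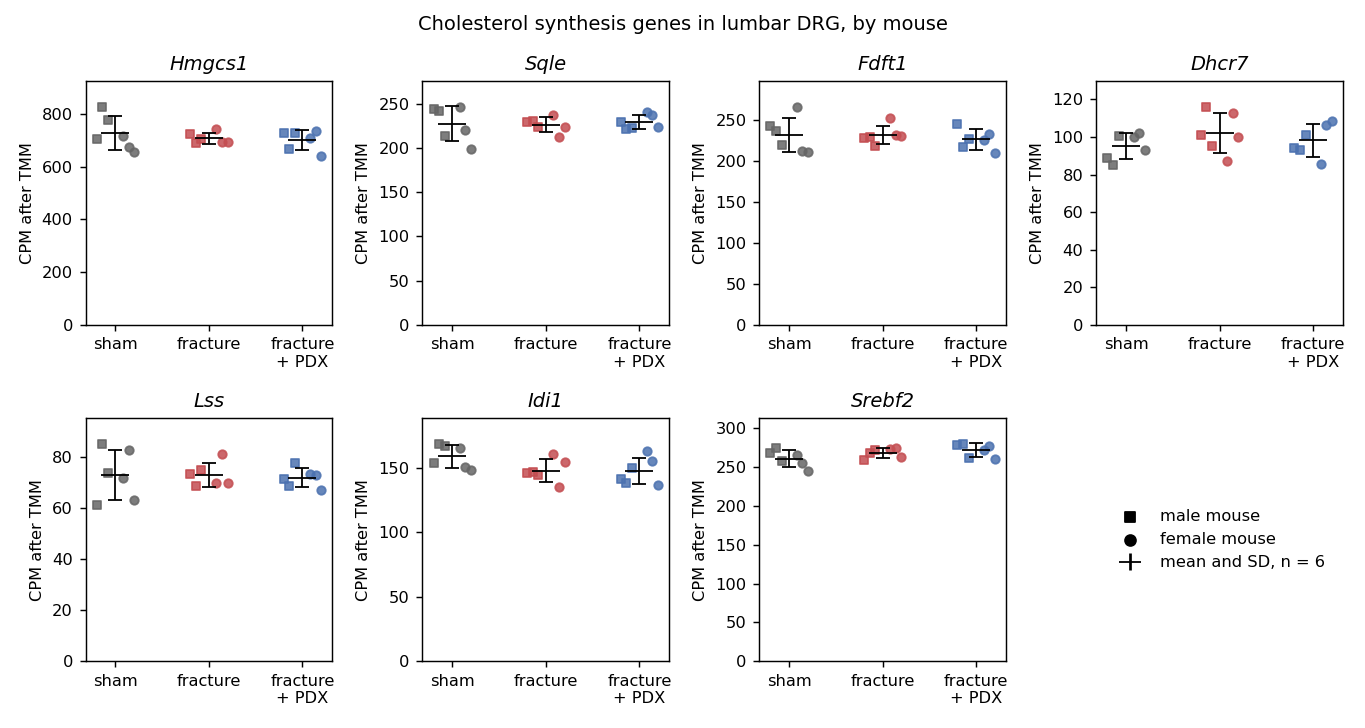
CPM after TMM scaling of the 7 genes, 1 panel per gene, by group, with each point 1 mouse (squares males, circles females) and bars the mean and SD of 6 mice. The groups overlap in every panel, *Idi1* has 4 fracture mice below the lowest sham mouse, and the sham points of *Hmgcs1*, *Fdft1*, *Sqle* and *Lss* are the most spread.

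The first comparison asked whether tibial fracture changed these transcripts in the DRG. No gene of the 7 was called changed between fracture and sham mice, at an adjusted p-value under 0.05 by edgeR's quasi-likelihood test, where 2.92% of 20659 tested genes were called. *Idi1* had the largest decrease, from 159 ± 8.92 CPM in sham to 148 ± 8.88 CPM in fracture mice (SD, n = 6 each). Its log2 fold change was -0.11 ± 0.045 (SE), a difference of -7.04% with a 95% interval of -13.1% to -0.538% (edgeR, adjusted p = 0.233). It was the only 1 of the 7 genes with an unadjusted p-value under 0.05, beside 18.5% of all genes tested.

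*Dhcr7* had the largest increase, from 95.02 ± 6.94 to 102 ± 10.7 CPM, with a log2 fold change of 0.10 ± 0.070 (adjusted p = 0.486 by edgeR). *Hmgcs1* was at 727 ± 64.7 CPM in sham and 708 ± 21.1 CPM in fracture mice, a log2 fold change of -0.03 ± 0.043 (edgeR, adjusted p = 0.738). *Srebf2* was at 260.4 ± 10.7 and 268 ± 6.08 CPM, a log2 fold change of 0.04 ± 0.030 (edgeR, adjusted p = 0.520). The 3 genes overlapped between the groups.

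Differences were smallest at the squalene and lanosterol steps. The difference was 0.0805% for *Fdft1* (95% interval -7.68% to 8.49%), -0.590% for *Sqle* (-7.70% to 7.07%) and -0.194% for *Lss* (-11.4% to 12.4%), each smaller than its standard error. Over the 7 genes the intervals reached from -13.1% to 19.2%, and the narrowest, that of *Srebf2*, from -1.60% to 7.46%. The median size of the log2 fold change was 0.03 over the 7 genes and 0.10 over all genes tested, many of which were less abundant and varied more between mice. Against this, all 12 sensory neuron markers had a fold change above 0 and 5 were called higher, while 11 of 12 myelinating Schwann cell markers were below 0 and 0 were called, beside 2.92% of all genes tested. Of 8 satellite glia markers, 6 were above 0 and 1, *Ednrb*, was called higher. The part of cell composition in the values of the 7 genes was not tested.

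The second comparison asked what PDX did after fracture. None of the 7 genes was called (edgeR; 0% of 20562 tested genes were called), and none had an unadjusted p-value under 0.05, beside 5.41% of all genes. All 7 differences were smaller than their own standard error. The log2 fold changes, fracture plus PDX minus fracture, were 0.03 for *Sqle* and *Srebf2*, 0.00 for *Idi1*, -0.01 for *Hmgcs1* and *Lss*, -0.03 for *Fdft1* and -0.05 for *Dhcr7*. The interval of the difference was narrowest for *Srebf2*, at -2.18% to 5.86%, and widest for *Dhcr7*, at -13.95% to 8.53%. For *Hmgcs1*, at 708 ± 21.1 and 701 ± 38.7 CPM, it was -5.86% to 5.07%. The lowest adjusted p-value among the 7 was 0.975 (edgeR). By DESeq2, 10 genes of the whole table were called in this comparison and none of them was among the 7.

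Fracture plus PDX mice were also compared with sham mice, a comparison that shares its sham libraries with the first and its PDX libraries with the second. Again 0 of the 7 genes were called (edgeR), beside 4.5% of 20574 tested genes, and before adjustment 0 of the 7 were under 0.05, beside 18% of all genes. *Srebf2* was at 260.4 ± 10.7 CPM in sham and 271 ± 8.69 CPM in fracture plus PDX mice, a difference of 4.62% with a 95% interval of -0.0258% to 9.49% (edgeR, adjusted p = 0.282). *Idi1* was at 147 ± 10.3 CPM in fracture plus PDX mice, a difference from sham of -6.94% with an interval of -13.5% to 0.120% (edgeR, adjusted p = 0.289). Of the fracture plus PDX mice, 3 were below every sham mouse for *Idi1*. The other 5 genes had log2 fold changes between -0.04 for *Hmgcs1* and 0.05 for *Dhcr7*, each smaller than its standard error.

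**Figure D3:**
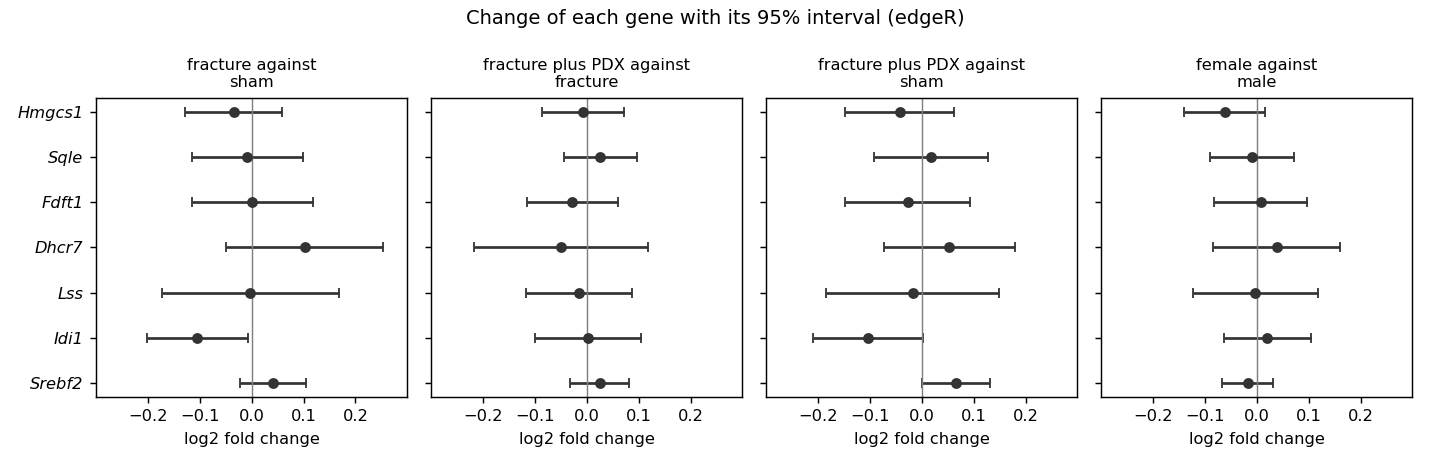
Log2 fold change of each of the 7 genes with its 95% interval from edgeR, in 1 panel for each of 4 comparisons (first-named group minus second-named group). All intervals cross 0 except that of *Idi1* in fracture against sham, which ends at -0.01.

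Each group held 3 males and 3 females, so the sexes were compared over 18 mice with group in the model. None of the 7 genes was called (edgeR), beside 0.297% of 20527 tested genes, and none was under 0.05 before adjustment, beside 10.4%. *Hmgcs1* had the largest difference, at 728 ± 48.0 CPM in 9 males and 696 ± 34.7 CPM in 9 females, a log2 fold change of -0.06 ± 0.037 (edgeR, adjusted p = 0.612). The intervals of the 7 genes, female against male, reached from -9.22% to 11.7%.

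The effect of fracture was also compared between the sexes. For *Hmgcs1* the log2 difference of fracture from sham was -0.12 in males and 0.06 in females, and the interaction was 0.18 ± 0.075 (edgeR, adjusted p = 0.652). *Hmgcs1* was the only 1 of the 7 with an unadjusted p-value under 0.05 for this interaction, beside 7.2% of tested genes, of which 0% were called. *Idi1* was lower after fracture in both sexes, by -0.16 in males and -0.05 in females (interaction 0.11 ± 0.088, edgeR, adjusted p = 0.831). Of the 7 genes, 0 were called for the interaction of sex with PDX after fracture or with fracture plus PDX against sham (edgeR), beside 0.00486% of tested genes in each, and none was under 0.05 before adjustment, beside 4.14% and 6.74%.

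The remaining genes of the pathway were counted from lists. Of 16 further cholesterol synthesis enzymes, all were tested and 0 were called in any of the 3 group comparisons or between the sexes (edgeR), beside 2.92%, 0%, 4.5% and 0.297% of all genes tested, so 0 of 16 is near the share of all genes. In fracture against sham 6 had a fold change above 0 and 10 below it, with a median log2 fold change of -0.01 beside 0.00 over all genes. The smallest p-values in that comparison belonged to *Lbr*, a sterol reductase that is also the lamin B receptor, at a log2 fold change of -0.25 ± 0.070 (edgeR, adjusted p = 0.0767), to the lanosterol demethylase *Cyp51* at -0.22 ± 0.073 (edgeR, adjusted p = 0.126) and to *Msmo1*, which removes a methyl group from the sterol ring, at -0.10 ± 0.041 (edgeR, adjusted p = 0.183). By DESeq2, *Lbr* (adjusted p = 0.0223) and *Cyp51* (adjusted p = 0.0358) were called lower. All 3 genes act after lanosterol, as does *Dhcr7*, whose fold change of 0.10 had the opposite sign.

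After PDX, with fracture as the reference, the smallest p-values among the 16 were those of *Nsdhl* at -0.09 ± 0.044 and *Hsd17b7* at 0.16 ± 0.088 on the log2 scale (edgeR, adjusted p = 0.917 for both). Against sham they were those of *Msmo1* at -0.15 ± 0.046 (adjusted p = 0.0933 by edgeR), *Hsd17b7* at 0.22 ± 0.079 (adjusted p = 0.148 by edgeR) and *Lbr* at -0.24 ± 0.110 (adjusted p = 0.268 by edgeR). *Msmo1* was called with DESeq2 (adjusted p = 0.0431) and when all 18 libraries were fitted together (edgeR, adjusted p = 0.0444).

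Of 14 genes of sterol sensing, SREBP processing and SREBP2 targets other than the enzymes, 1 was called, lower, in fracture against sham (2.92% of all genes tested were called) and 1, lower, in fracture plus PDX against sham (4.5% of all genes tested). Both calls were *Npc2*, which hands cholesterol out of the lysosome. It was at 131 ± 7.60 CPM in sham mice, 112 ± 8.33 after fracture and 113 ± 6.04 after fracture plus PDX, with log2 fold changes of -0.23 ± 0.050 (edgeR, adjusted p = 0.0290) and -0.21 ± 0.045 (edgeR, adjusted p = 0.0207). Its sham mice spanned 122 to 139 CPM and its fracture mice 103 to 125, so the groups overlapped. The call against sham was lost in 8 of 21 alternatives for fracture and in 4 of 21 for fracture plus PDX. Leaving out sham male 2, sham male 3 or sham female 2 ended it in both, the adjusted p-values over all alternatives were 0.00128 to 0.0839 and 0.00129 to 0.0551, and with a replicate block of same-sex, same-numbered mice the adjusted p-values were 0.0839 and 0.0172 (edgeR). The SREBP2 partner *Scap* and the retention genes *Insig1* and *Insig2* were not called in any comparison.

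Of 11 genes of cholesterol export and LXR control, 1 was called, higher, in fracture plus PDX against sham, beside 4.5% of all genes tested. This was *Abca1*, the pump that loads cholesterol onto apolipoproteins, at 78.7 ± 4.92 CPM in sham mice, 86.8 ± 11.4 after fracture and 99.0 ± 14.1 after fracture plus PDX (log2 fold change against sham 0.34 ± 0.085, edgeR, adjusted p = 0.0448). Every fracture plus PDX mouse (84.4 to 121 CPM) was above every sham mouse (70.6 to 83.9 CPM), but the call was lost in 13 of 21 alternatives, among them each that left out a sham mouse. The adjusted p-value was 0.00202 to 0.108 over the alternatives and 0.108 with the replicate block (edgeR). *Abcg1*, of the same list, also had no overlap between these groups, at 70.1 ± 3.05 and 76.4 ± 2.18 CPM, and was not called (edgeR, adjusted p = 0.0592). The share of all genes without overlap was not counted. Of 8 fatty acid synthesis genes, 0 were called in any of the 3 group comparisons, beside 2.92%, 0% and 4.5% of all genes tested. Macrophages also express *Npc2* and *Abca1*. Summed CPM of 8 macrophage markers was 92.3 to 112 in sham mice, 70.8 to 92.5 after fracture and 69.1 to 97.9 after fracture plus PDX, with 2 and 1 of the 8 called lower than sham, beside 2.92% and 4.5% of all genes tested. Of other cell types, the sum of 5 fibroblast markers was 1465 to 1945 in sham mice, 1390.2 to 1617 after fracture and 1274 to 1803 after fracture plus PDX, with 1 and 0 of them called lower. The sum of 5 endothelial markers was 80.0 to 106 in sham mice, 68.8 to 86.4 after fracture and 68.9 to 81.3 after fracture plus PDX, with 1 called lower in each comparison with sham. The sum of 8 neutrophil markers had medians of 167, 98.1 and 199 CPM in the same order of groups, and that of 8 skeletal muscle markers 75.7, 347 and 52.8 CPM. In the 3 group comparisons 0 genes of either list were called (edgeR), beside 2.92%, 0% and 4.5% of all genes tested. In fracture plus PDX against fracture all 8 neutrophil markers were above 0, with an unadjusted p-value under 0.05, beside 5.41% of all genes (edgeR). All 8 skeletal muscle markers were below 0 there, 0 of them under 0.05. The part of these cells in the values of both genes was not tested.

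With little movement between groups, the remaining question was whether the 7 genes moved together from mouse to mouse within a group. Log2 CPM was taken as the deviation from the mean of the mouse's group and sex, and each of the 21 pairs was tested by exchanging deviations among mice of the same group and sex (two-sided permutation test, 100000 permutations, adjusted over the 21 pairs). Pearson's r was above 0 in 15 of 21 pairs, with a median of 0.23 and a range from -0.42 to 0.86. The closest pair was *Sqle*, which oxidizes squalene, and *Fdft1*, which makes it. They had r = 0.86 and Spearman's rho = 0.84 over 18 mice (permutation p = 0.00042 and 0.00071, adjusted p = 0.00882 and 0.0149). Without the 2 mice farthest from the median of *Sqle*, r was 0.76, and with any 1 mouse left out it stayed between 0.75 and 0.91 (permutation test, adjusted p at most 0.0346). The adjusted p-value of rho rose above 0.05 without fracture female 1 (0.0636) and without fracture plus PDX female 3 (0.0546, permutation test).

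*Hmgcs1* and *Idi1*, both before squalene, had r = 0.76 and rho = 0.71 (permutation p = 0.00463 and 0.0118, adjusted p = 0.0486 and 0.124), and r = 0.65 without the 2 farthest mice. Leaving out 1 mouse raised the adjusted p-value of r above 0.05 in 14 of 18 cases, up to 0.222 without fracture plus PDX female 3 (permutation test). No other pair passed. *Srebf2* had r = 0.63 with *Sqle* and 0.58 with *Fdft1* (permutation test, adjusted p = 0.175 and 0.203). *Dhcr7* stood apart, with r below 0 against 5 of the other 6 genes and a median r of -0.23, although none of these passed the test.

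**Figure D4:**
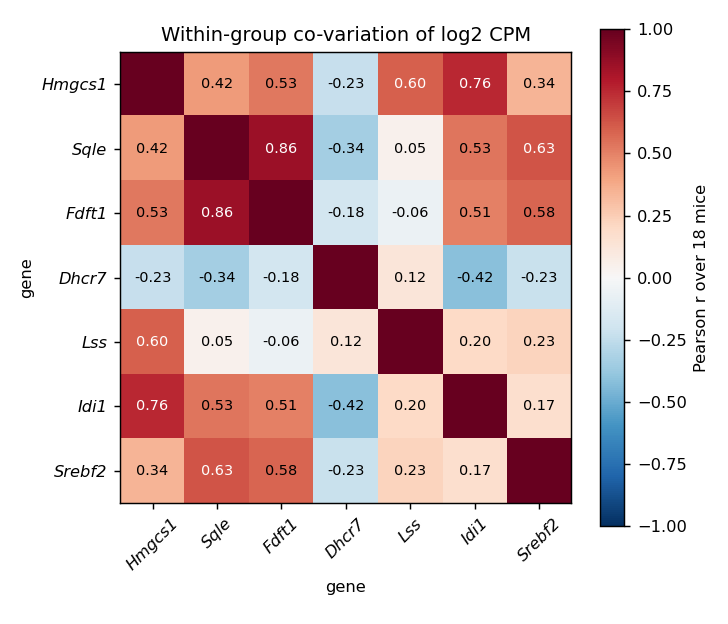
Pearson's r over 18 mice for each pair of the 7 genes, from deviations of log2 CPM from the mean of the mouse's group and sex (red above 0, blue below 0). *Sqle* with *Fdft1* (0.86) and *Hmgcs1* with *Idi1* (0.76) are the deepest red, and the *Dhcr7* row is mostly blue.

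**Figure D5:**
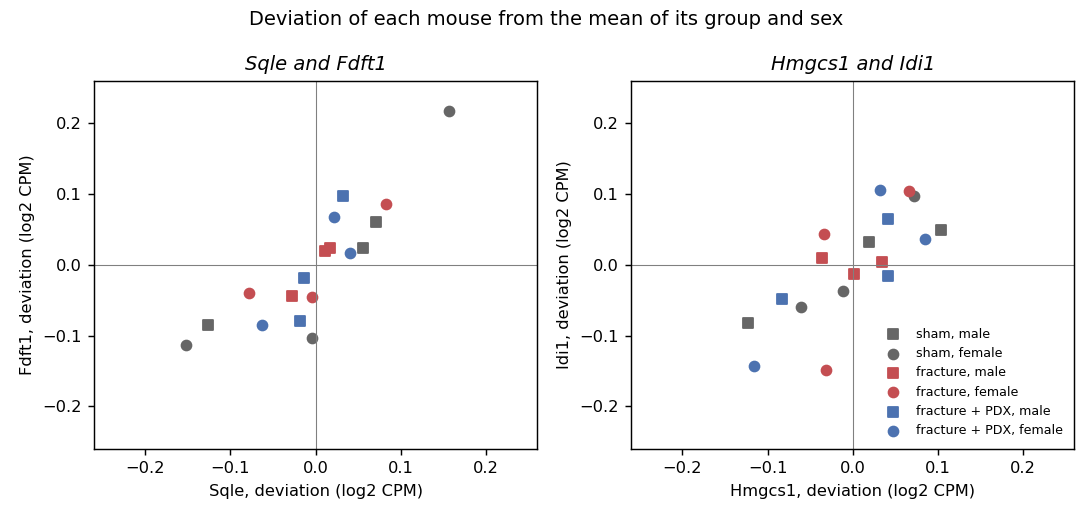
Deviation of each mouse from the mean of its group and sex, in log2 CPM, for *Fdft1* against *Sqle* and for *Idi1* against *Hmgcs1* (squares males, circles females, colours the 3 groups). Points of all 3 groups follow the diagonal for *Sqle* and *Fdft1*, where sham female 1 is the point at the upper right. For *Hmgcs1* and *Idi1* the fracture points follow it less. Fracture females 2 and 3 are both at -0.03 for *Hmgcs1*, but at -0.15 and 0.04 for *Idi1*.

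Relations of the 7 genes with the summed markers of neurons, myelinating Schwann cells and satellite glia were computed in the same way after seeing the data, 21 in all. None passed adjustment (permutation test, lowest adjusted p = 0.747). The largest in size were r = -0.70 for *Fdft1* with the satellite glia sum (rho = -0.58, permutation p = 0.0496 and 0.0561, r = -0.46 without the 2 farthest mice) and r = -0.59 for *Sqle* with the Schwann cell sum, which was -0.30 without the 2 farthest mice. Across sham mice the Schwann cell sum ranged from 11143 to 25384 CPM, whereas *Sqle* ranged from 199 to 246 CPM.

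Among 14234 expressed genes, the 10 most like the mean deviation of the 7 genes over the 18 mice were *Cnot9* (r = 0.93), *Mvd* (0.89), *Mrpl44* (0.85), *Gm10036* (0.85), *Taf7* (0.85), *Cdk10* (0.84), *Ly6c2* (0.84), *Cdk9* (0.84), *Hrob* (0.83) and *Cdk2* (0.83). *Mvd*, which makes isopentenyl diphosphate, is the only enzyme of the pathway list among them. These values are descriptions, since the genes were picked for their likeness, all points come from the same libraries, and the median over all 14234 genes was 0.01.

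Of the 16 other cholesterol synthesis enzymes, all had r above 0 with that mean, with a median of 0.56, and those within the first 100 genes included *Mvd* at rank 2, *Msmo1* at 24 (r = 0.79), *Sc5d* at 27 (0.78) and *Fdps* at 57 (0.72). At the other end were *Ebp* at 0.02 and *Cyp51* at 0.00. Of the control genes, the SREBP2 targets *Insig1* (0.69) and *Stard4* (0.61) and the escort *Scap* (0.59) were among the most like it, whereas *Srebf1* was at 0.18 and the processing protease genes *Mbtps1* and *Mbtps2* at -0.17 and -0.30. No test was made on these ranks.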

How the data were processed

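L3–L5 DRG RNA of 18 CD1 mice was measured by paired-end bulk RNA-seq, with strand-specific libraries made from poly(A) RNA. The authors deposited raw counts for 36737 genes, without normalization, and FPKM values, scaled by transcript length and mapped fragments. The submitters' processing notes list cutadapt 1.10, FastQC, HISAT2, StringTie and build mm10; the counting program, its strand setting and the annotation release are not given in the sources used here. Columns named Con were matched to sham mice by sex and number. Groups follow the sample labels.

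Tests were run with edgeR 4.0.16 under R 4.3.3 (filterByExpr with minimum count 10 and minimum total count 15, TMM, robust quasi-likelihood fit on the 12 libraries of a comparison with sex as covariate, and for sex all 18 libraries with group). The Benjamini-Hochberg adjustment ran over all genes tested, with a threshold of 0.05. CPM was computed after TMM, and its log2 with a prior count of 2. Depth was 63235040 to 82824942 counts. The scripts were tested on simulated data. Correlations used deviations from group-and-sex means. Deviations were exchanged only within group and sex, a scheme chosen after seeing the data.

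The 7 genes and all lists were chosen with earlier results of these data known. From the lists, genes past the threshold and up to 3 with the smallest p-value per list and comparison were eligible for naming, and other genes (*Scap*, *Insig1*, *Insig2* and enzymes named for their level or likeness) were named after their values were seen. Some genes of the lists are counted but not reported singly here. Pattern likeness was ranked among tested genes with mean log2 CPM above 1. Alternatives were DESeq2 1.42.0, upper-quartile scaling, no filter, a floor of 10 counts in every library, no sex term, a replicate block, all 18 libraries in one fit, limma 3.58.1 on log2(FPKM + 1) and log2(FPKM + 0.1), and leaving out each mouse. Mice of the same sex and number had correlations of -0.20 to 0.30, over 0.1 in 1 of 6, 3 of 6 and 2 of 6 pairs for the 3 pairs of groups. The male 1 mice were at 0.23, 0.25 and 0.21. These values do not settle whether such mice share more than a number. They were treated as sharing only a number, with the replicate block as an alternative.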

Additional observations from a re-analysis of the deposited data

Results flagged for a closer look

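*Fdft1* in fracture female 1 was far from the other fracture mice, at 253 CPM against 232 CPM for the nearest, a gap of 0.628 of the group's range, just past Dixon's critical value for 6 samples. It was the only 1 found in 21 combinations of gene and group, and chance alone marks about 1 in 20. Without this mouse no gene of the 7 was called.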

How the results depend on the processing

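None of the 7 genes was called in any of the 21 alternatives of each group comparison, the 24 of the sex comparison or the 3 of each interaction. Calls over all genes moved more. With DESeq2 they numbered 1506 for fracture against sham, 10 for PDX after fracture, 1627 for fracture plus PDX against sham and 323 for sex, beside 603, 0, 925 and 61 by edgeR. With a replicate block of same-sex, same-numbered mice they numbered 118, 0 and 486, and the block called 0 of the 7 genes. Leaving out 1 mouse gave 213 to 710, 0 to 1, 498 to 1008 and 25 to 79 calls. Of the 16 further enzymes, DESeq2 called 2 in fracture against sham and 1 in fracture plus PDX against sham, the fit of all 18 libraries called 1 in the latter, and leaving out 1 mouse gave 0 to 1 in fracture against sham (*Cyp51* without fracture female 2). Pairs of the 7 genes past adjustment numbered 5 instead of 2 when deviations were exchanged over all 18 libraries, and 1 to 4 when 1 mouse was left out.

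Differences near 0 turned sign. In fracture against sham, *Lss* was 0.00196 with upper-quartile scaling and 0.00532 with the replicate block, and *Fdft1* was -0.000214 without a filter, -0.00105 with at least 10 counts in every library, -0.00117 in the fit of 18 libraries, and -0.0053 and -0.00534 with limma on log2(FPKM + 1) and log2(FPKM + 0.1). In fracture plus PDX against fracture, *Idi1* was -0.0021 without a filter and -0.00454 and -0.00466 with limma. Between the sexes, *Lss* was 0.00312 with upper-quartile scaling and 0.0109 and 0.0125 with limma, and *Sqle* 0.00433 and 0.00439 with limma. The cause was not tested. Leaving out 1 mouse also turned the sign of log2 fold changes, with these ranges: for fracture against sham, *Sqle* -0.0445 to 0.0212, *Fdft1* -0.0306 to 0.0437 and *Lss* -0.053 to 0.0512. For PDX after fracture, *Hmgcs1* -0.026 to 0.0179, *Lss* -0.0413 to 0.0225 and *Idi1* -0.0313 to 0.0294. For fracture plus PDX against sham, *Sqle* -0.0205 to 0.045, *Fdft1* -0.0506 to 0.0253 and *Lss* -0.0678 to 0.0337. For female against male, *Sqle* -0.0271 to 0.0151, *Fdft1* -0.0229 to 0.025 and *Lss* -0.0338 to 0.0318. *Idi1* kept its direction against sham in all alternatives (-0.14 to -0.08 in fracture, -0.14 to -0.08 in fracture plus PDX mice), as did *Dhcr7* and *Srebf2*. The size of the *Dhcr7* value moved, from 0.0535 to 0.151 in fracture and from 0.0276 to 0.10 in fracture plus PDX mice against sham. For PDX after fracture, *Dhcr7* ranged from -0.0951 to -0.00251. What 6 mice a group allow for each gene is given by its 95% interval.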
